A study of Homo sapiens with 6 samples.

Results

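Both mature arms of 2 human microRNA (miRNA) hairpins, miR-149 and miR-197, were followed in small RNA libraries of extracellular vesicles. The members are 4 of the 1007 miRNA names in the deposited count table, hsa-miR-149-5p, hsa-miR-149-3p, hsa-miR-197-5p and hsa-miR-197-3p (hsa for human, left out below), taken by exact name. They were chosen because the 3p to 5p ratio of each hairpin was known to differ between the groups, so the values of that contrast are given below as a description. Where tests run over all miRNAs or hairpins also covered them, the calls are listed with the share called in all, and nothing is read from them. The vesicles (exosomes) came from medium of MHCC97H, an established line of highly metastatic human liver cancer cells, grown with 5% fetal bovine serum and 5% serum without exosomes. The 3 control libraries and the 3 xanthatin libraries shared dimethylsulfoxide at 0.5% per the labels, and the xanthatin cells received 4 µmol/L of xanthatin for 24 h, a lactone found in cocklebur (Xanthium). The labels do not say whether reads from vesicles of that serum were removed, so its part in the counts was not tested. Nothing in the labels says that the 3 libraries of a group came from separate cultures, so the spread between them may be technical. Since vesicle RNA is a bulk sample, fewer vesicles that carry a miRNA and less of it per vesicle cannot be told apart.

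A miRNA hairpin is cut by Drosha and Dicer into a duplex of a 5p and a 3p strand. As background, one strand is usually kept by an Argonaute protein as the guide and the other is degraded, and a weakly paired 5′ end and a 5′ U favour the guide. The guide pairs with target transcripts mainly through its seed, bases 2 to 8, so that the arms of a hairpin repress different transcripts. miR-149-5p and miR-197-3p are the arms usually reported as guides of these hairpins, and both have been studied in liver and other cancers. Counts of 2 arms are not a molar ratio, since adapters join different ends with different efficiency.

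The mature sequences (RefSeq, GRCh38.p14) are shown because the arms differ in base composition and in seed, which the choice of members did not use. Each is written 5′ to 3′ with the seed in capitals.
hsa-miR-149-5p: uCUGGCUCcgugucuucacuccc
hsa-miR-149-3p: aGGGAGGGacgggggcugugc
hsa-miR-197-5p: cGGGUAGAgagggcagugggagg
hsa-miR-197-3p: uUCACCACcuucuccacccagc
The 4 seeds were distinct. miR-149-5p and miR-197-3p both start with U, while miR-149-3p starts with A and miR-197-5p with C. G made up 61.9% of miR-149-3p and 60.9% of miR-197-5p, each with 3 runs of 3 or more G, against 17.4% of miR-149-5p and 4.55% of miR-197-3p, which have no such run. No other name in the table that matched a RefSeq sequence (441 of 494 known names matched) shared a seed with any of the 4 arms. Seeds of unmatched names were not compared. RefSeq holds 2 human miRNAs with the seed of miR-149-3p and 1 with that of miR-197-5p.

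On GRCh38, the hairpin MIR149 lies on chromosome 2 from 240456001 to 240456089 on the plus strand. In GENCODE release 29 it lies within GPC1 (glypican 1, a heparan sulfate proteoglycan) on the same strand, in an intron of each of the 4 GPC1 transcripts that span it, and 2 transcripts of the noncoding gene AC110619.1 run across it on the other strand. MIR197 lies on chromosome 1 from 109598893 to 109598967 on the plus strand, inside exon 9 of the long GNAI3 transcript (a G protein alpha subunit), in its annotated untranslated region. The files give no transcript levels of GPC1 or GNAI3.

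The control libraries held 63965 to 80088 miRNA counts and the xanthatin libraries 204520 to 267956, so 1 count equalled 11.6 to 13.3 CPM in control libraries against 4.16 to 5.55 CPM after xanthatin (CPM is the count scaled to a common library size, here adjusted with TMM factors). In all, 77 of 254 tested miRNAs passed edgeR's quasi-likelihood test at a Benjamini-Hochberg adjusted p under 0.05, 34 higher and 43 lower in xanthatin libraries (22 higher and 60 lower with library totals only, 37 and 30 with no count filter). Other shares of the libraries moved with the treatment. The 4 of 8 blood cell names in the table (miR-486-5p the most abundant) summed to 0.619% to 1.19% of control counts and 0.0552% to 0.0705% of xanthatin counts. Those of stroma and endothelium (6 of 7 names, miR-10b-5p the most abundant) summed to 0.41% to 0.561% and 0.0608% to 0.088%. miRNA names whose sequences match pieces of other RNAs (5 of 11, miR-1275 the most abundant) summed to 0.45% to 0.689% and 0.0696% to 0.163%, and hepatocyte names (5 of 5, miR-148a-3p the most abundant) to 10.8% to 13.7% and 2.71% to 3.27%. Not all names moved one way: of 4 tested hepatocyte names miR-192-5p rose, miR-122-5p and miR-148a-3p fell, and the median log2 fold change was -0.03. miR-150-5p, miR-145-5p, miR-214-3p and miR-885-5p were at 0 counts after xanthatin, and miR-142-5p (blood cells) and miR-3960 (matching other RNAs) were at 0 counts in control. The part of these shares in the results below was not tested.

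The balance of the miR-149 arms lay on the 3p side or near equality in control vesicles and on the 5p side in xanthatin vesicles. Counts of the 3p arm set against the 5p arm were 20 to 4, 41 to 24 and 37 to 50 in control libraries 1, 2 and 3. They were 0 to 57, 1 to 141 and 16 to 87 in xanthatin libraries 1, 2 and 3. The 3p share of the hairpin's counts was thus 83.3%, 63.1% and 42.5% without xanthatin, against 0%, 0.704% and 15.5% with it, so every xanthatin library lay below every control library. The exact binomial 95% intervals, which cover counting error only, were 62.6% to 95.3%, 50.2% to 74.7% and 32% to 53.6% in control. In xanthatin libraries they were 0% to 6.27%, 0.0178% to 3.86% and 9.15% to 24.0%, and the one-sided limit that 0 of 57 counts allows (3 counts) is 5.26%. The nearest libraries, control 3 and xanthatin 3, had intervals that did not overlap.

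miR-197 moved the other way, to a larger share of its 3p arm, the more abundant arm in all 6 libraries. Counts of the 3p arm set against the 5p arm were 14 to 1, 22 to 12 and 50 to 26 in control libraries 1, 2 and 3, and 254 to 8, 302 to 0 and 302 to 17 in the xanthatin libraries. As a 3p share this was 93.3%, 64.7% and 65.8% without xanthatin, against 96.9%, 100% and 94.7% with it. The ranges of the groups did not overlap, but control 1 lay close to the xanthatin libraries. With only 15 counts for the hairpin, its exact interval of 68.1% to 99.8% covered the values of xanthatin 1 and 3. It also overlapped the interval of xanthatin 2. The intervals of control 2 (46.5% to 80.3%) and control 3 (54.0% to 76.3%) lay below those of the xanthatin libraries (94.1% to 98.7%, 98.8% to 100% and 91.6% to 96.9%). For the 5p arm of xanthatin 2, the one-sided limit that 0 of 302 counts allows (3 counts) is 0.993%.

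**Figure D1:**
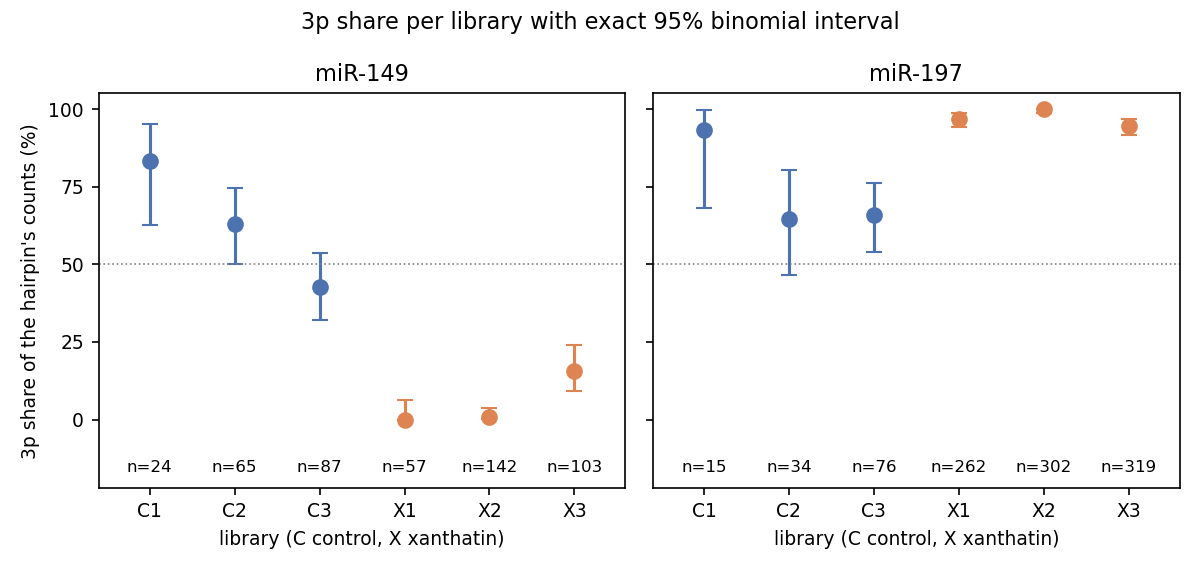
The 3p share of all counts of the hairpin (y axis, percent) is plotted for each library (x axis; C control, X xanthatin), with the exact 95% binomial interval as the error bar, the hairpin's counts as n and a dotted line at equal arms. For miR-149 the xanthatin libraries reach at most 15.5% against at least 42.5% in control, and for miR-197 they sit at 94.7% or above, with control 1 (93.3%, n = 15) just below them.

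On a log2 scale with 0.5 added to each arm's count, the mean 3p to 5p ratio of miR-149 was 0.84 ± 1.31 (SD, n = 3) without xanthatin and -5.27 ± 2.48 with it, a difference of -6.11 (SE 1.62). That of miR-197 was 1.68 ± 1.38 without xanthatin and 6.09 ± 2.76 with it, a difference of 4.40 (SE 1.78). A ratio within a library needs no library scaling, but at these counts its size depends on the libraries with 0 or 1 count. From the summed counts of each group the differences were -4.40 for miR-149 (98 to 78 against 17 to 285 counts) and 3.96 for miR-197 (86 to 39 against 858 to 25 counts). Without xanthatin replicate 2, which held no miR-197-5p count, the miR-197 difference was 2.82. Without xanthatin replicate 3, which held 16 of the 17 miR-149-3p counts of its group, the miR-149 difference was -7.54. Without control replicate 1 it was -5.44, and that of miR-197 was 5.20. All 6 omissions kept the sign of both differences.

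The level of the 3p arm separated the groups in both hairpins, in opposite directions. In miR-149 the 3p arm was low in xanthatin vesicles, while the xanthatin values of the 5p arm lay inside the wider control range. In miR-197 the 3p arm was high in xanthatin vesicles, while the ranges of the 5p arm overlapped. Arms moving apart thus describes the ratios, whereas by level only the 3p arm of each hairpin separated the groups.

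miR-149-3p, the strand less often reported as the guide, was at 231, 518 and 492 CPM without xanthatin, against 0, 4.16 and 88.9 CPM with it. Every xanthatin library was below every control library, and xanthatin 3 was far above the other xanthatin libraries. The mean of 31.0 ± 50.1 CPM after xanthatin was 13.4-fold lower than the control mean of 414 ± 159 CPM, and the fitted log2 fold change was -3.73 (SE 1.5). It was -7.03 without xanthatin replicate 3. A count of 0 in xanthatin 1 allows up to 14.2 CPM.

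miR-149-5p, a regulator reported to restrain proliferation and invasion in several tumours, was at 46.3, 303 and 665 CPM without xanthatin, against 270, 586 and 483 CPM with it. The lowest and the highest value were both in control, so the groups overlapped fully. The means of 338 ± 311 and 446 ± 161 CPM gave a log2 fold change of 0.40 (SE 0.87), which was -0.14 without control replicate 1 and 1.34 without control replicate 3.

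miR-197-3p, reported to target regulators of immune signalling and apoptosis, was at 162, 278 and 665 CPM without xanthatin, against 1203, 1256 and 1677 CPM with it. The groups did not overlap, and control 3 stood above the other control libraries. The mean was 3.74-fold higher in xanthatin libraries (1378 ± 260 against 368 ± 264 CPM), with a log2 fold change of 1.90 (SE 0.56) that was 2.67 without control replicate 3 and 1.52 without control replicate 1.

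miR-197-5p had the fewest counts over all 6 libraries (64), although miR-149-3p had fewer after xanthatin (17 against 25). It was at 11.6, 152 and 346 CPM without xanthatin, against 37.9, 0 and 94.4 CPM with it. The lowest control library held 1 count and lay among the xanthatin libraries, so the groups overlapped. The fitted log2 fold change was -1.93 (SE 1.60), -0.97 without control replicate 3 and -3.09 without xanthatin replicate 3. A count of 0 in xanthatin 2 allows up to 12.5 CPM.

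**Figure D2:**
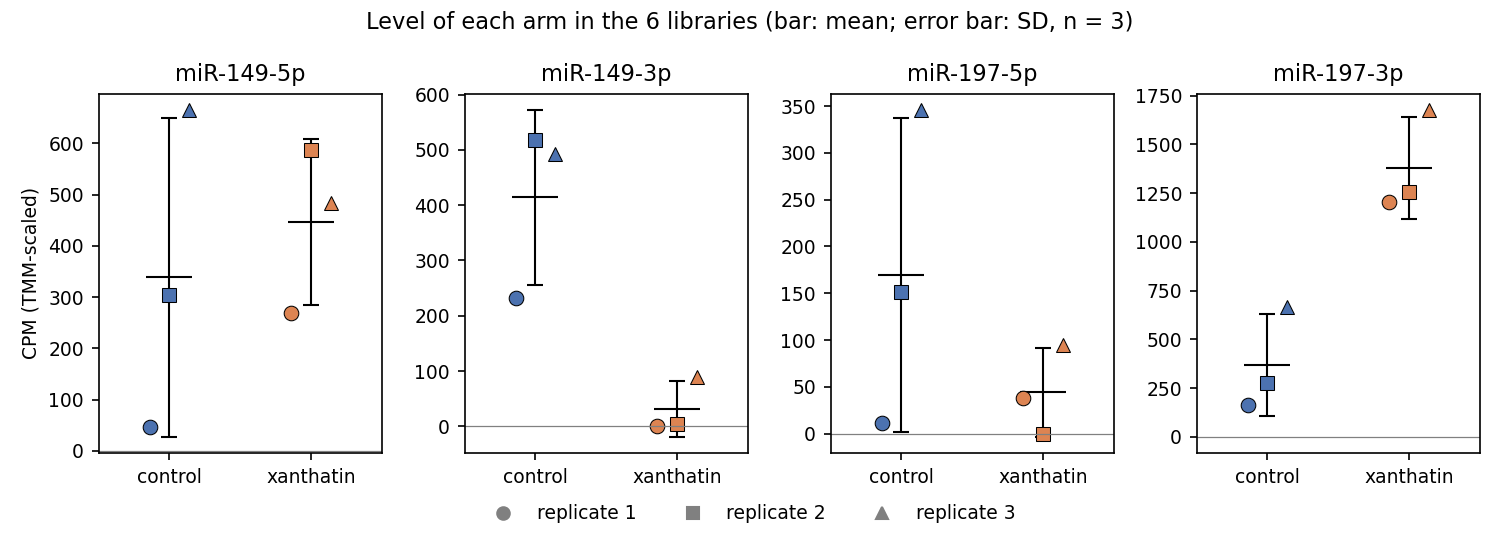
The level of each arm in TMM-scaled CPM (y axis, own scale in each panel) is plotted for control and xanthatin libraries, with points as single libraries, the horizontal bar as the mean and the error bar as the SD (n = 3). The groups are apart for miR-149-3p, where xanthatin libraries reach at most 88.9 CPM, and for miR-197-3p, where they start at 1203 CPM, and overlap for the 5p arms.

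Counts over all tested miRNAs put these levels in proportion. The CPM ranges of the groups did not overlap for 2 of the 4 arms, and for 54.7% of the 254 tested miRNAs. The edgeR test called 1 of the 4 arms, miR-197-3p, against 30.3% of all tested miRNAs, and since the arms were chosen from this contrast nothing is read from that count. miR-197-3p was called in 7 of 14 other settings. Its call was lost without control replicate 1 or 2, without any one xanthatin replicate, with library totals only and with a filter of mean CPM 10. miR-149-3p was not called, but it was with DESeq2, with libraries thinned to one depth and without xanthatin replicate 3. The 5p arms were called in 0 of 14 other settings, which included DESeq2.

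Libraries of one group also differed. Xanthatin 3 held 16 of 17 counts of miR-149-3p and 17 of 25 counts of miR-197-5p in its group, and it also had the highest miR-197-3p level of its group (1677 CPM), while its miR-149-5p level (483 CPM) lay between the other xanthatin libraries. Control 1 was the lowest of its group for all 4 arms, by count and by CPM. Over all 6 libraries the log2 CPM of miR-149-5p and miR-197-3p had a Pearson r of 0.742, and that of miR-149-3p and miR-197-5p had 0.671. The arms of one hairpin had -0.157 for miR-149 and -0.0274 for miR-197. These are descriptions over 6 libraries that share the group difference.

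Among 177 other tested known miRNAs, those with the most similar log2 CPM over the 6 libraries were listed for each arm. For miR-149-3p they were miR-205-5p (Pearson r 0.995), an epithelial miRNA with 14, 16 and 15 counts in the control libraries against 11, 12 and 18 in the deeper xanthatin ones, and miR-1275 (0.983). For miR-149-5p they were miR-30c-5p (0.884) and miR-589-5p (0.800), for miR-197-3p miR-28-5p (0.955) and miR-328-3p (0.938), and for miR-197-5p miR-3195 (0.913) and miR-200a-5p (0.888). As many as 24 miRNAs reached r of 0.9 with miR-149-3p, against 4 with miR-197-3p, 1 with miR-197-5p and 0 with miR-149-5p.

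The 2 hairpins were then set among all hairpins whose arms could be compared. Both arms of 77 hairpins were in the table, and 50 had at least 10 counts of the weaker arm over the 6 libraries, which is where both miR-149 (115 counts of its weaker arm) and miR-197 (64 counts) fell. The difference of the mean log2 ratio ran from -6.11 to 5.42, with a median size of 1.46, and lay above 0 in 24 hairpins and below 0 in 26. That of miR-149 was the largest in size of the 50, and 5 hairpins exceeded miR-197. The ratios of the groups did not overlap in both chosen hairpins, and in 32% of the 50. Shifts of this size also occurred in miR-23a (5.42), miR-221 (4.61), miR-194 (-5.05) and miR-10401 (-5.75), which were picked after their values were seen. Of the 47 hairpins with an arm in excess in both groups, 5 had a different more abundant arm after xanthatin, by summed counts. They were miR-149, miR-194, miR-10401, miR-1307 and miR-30b, all from 3p to 5p. The ratios of the groups overlapped in miR-1307 and miR-30b. For miR-10401 the control counts summed to 33 of the 3p arm and 2 of the 5p arm, at an uneven 135 ± 224 CPM for the hairpin.

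No hairpin passed a test of the arm ratio across the 50. With edgeR's diffSpliceDGE 0% had an adjusted p under 0.05 and 28% an unadjusted p under 0.05 (14 hairpins), and with limma on the log2 ratios the shares were 0% and 30% (15 hairpins). The member hairpins were thus called in 0 of 2 cases. They were also not among the 1 to 4 hairpins called under those alternatives that called any.

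**Figure D3:**
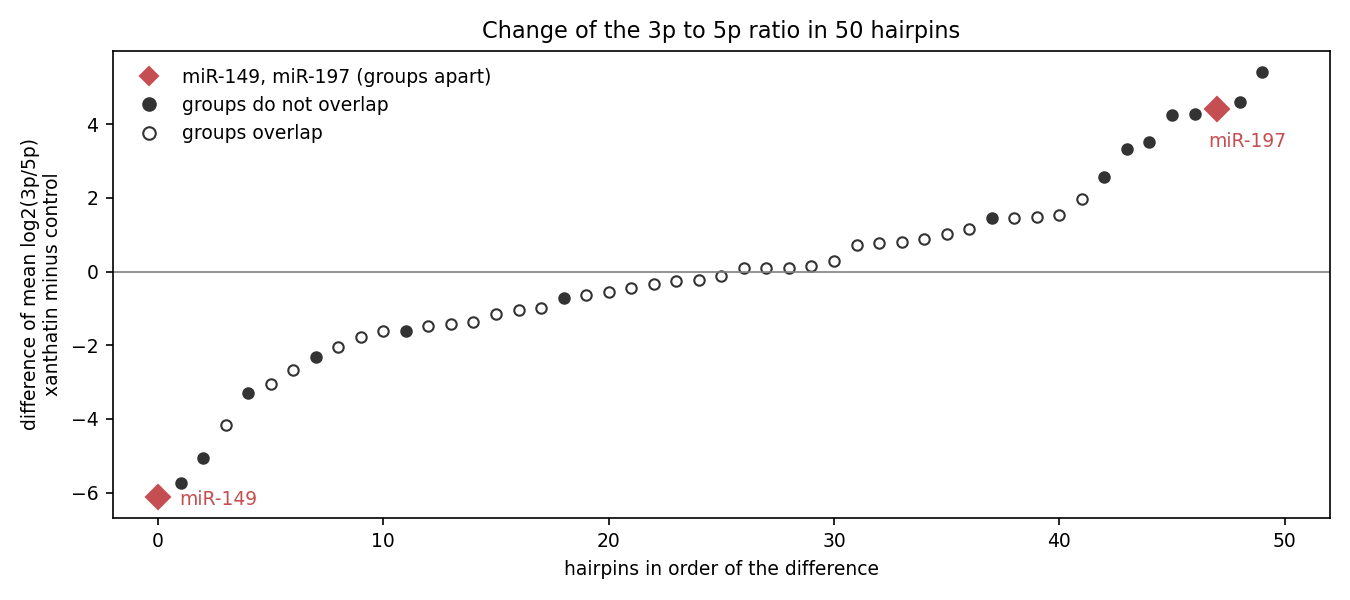
The difference of the mean log2 3p to 5p ratio, xanthatin minus control (y axis), is plotted for 50 hairpins in order of that difference (x axis), with filled points where the libraries of the groups do not overlap. miR-149 is the lowest at -6.11 and miR-197 lies near the top at 4.40, among other hairpins with shifts of similar size.

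Base composition, which the choice of members did not use, was then compared. In both hairpins the arm with more G was relatively lower after xanthatin, although it is the 3p arm of miR-149 and the 5p arm of miR-197. The other hairpins were tallied in the same way. Of 38 other hairpins with unequal G in arms that match RefSeq, the G-richer arm was relatively lower in 26. Of the 14 others whose arms differed by at least 20 percentage points of G, it was lower in 10, with miR-193b, miR-23a and miR-92b among them, and not lower in 4, which were let-7d, miR-10396b, miR-1306 and miR-671. These were named after their values were seen. Over the 38 hairpins the difference in G share and the difference in log2 ratio had a Pearson r of -0.371 and a Spearman rho of -0.416. The points come from the same 6 libraries and share their depth, so these are descriptions. In 13 of the 50 hairpins an arm had 0 counts in a whole group, 3 of them in both arms, so that the ratio rests on the added 0.5. miR-23a (27 counts of its 5p arm in control and 0 after xanthatin) is one of the 13. Without these and the members, in a tally added after seeing the data, the G-richer arm was lower in 19 of 27 hairpins, and in 6 of 7 whose arms differed by at least 20 points. Single libraries with 0 counts still weigh on these signs. In miR-576, tallied as lower (-1.36), the G-richer 3p arm rose from 25% to 36.9% by summed counts, and edgeR's arm difference was 0.84. By edgeR's difference miR-532 and miR-27b, also among the 27, left the pattern, and miR-10394 joined it. Of the hairpins with an arm at 0 in a whole group, miR-340 (0.28 against -2.44 by edgeR) and miR-342 (0.80 against -1.08) left it too. The arms of miR-342 differ by at least 20 points of G. The tally was not repeated with that measure.

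Among single miRNAs, 160 of the 178 tested known names matched a RefSeq sequence, and 12 of them had at least 50% G, miR-149-3p and miR-197-5p included. The table held 51 such G-rich names, and the others did not pass the count filter. Of the 10 tested apart from the members, 3 fell and 7 did not pass edgeR's test, and 8 had a log2 fold change below 0. Their median log2 fold change was -1.17, beside -0.19 for all 160, of which 16.9% fell and 12.5% rose. The sizes ran from -3.53 to 0.64 in the 10, while the 160 reached -9.32, so falls larger than those of the G-rich names occurred at lower G content. Over the 156 miRNAs other than the 4 arms, G share and log2 fold change had a Pearson r of -0.204 and a Spearman rho of -0.204, a description over miRNAs of the same libraries.

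The 3 G-rich miRNAs that fell are shown with their runs of 3 or more G in capitals, since they carry most of the counts of the group (RefSeq, GRCh38.p14).
miR-1275: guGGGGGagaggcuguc
miR-92b-5p: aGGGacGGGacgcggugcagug
miR-193b-5p: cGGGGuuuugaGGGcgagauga
miR-1275, a 17 nt miRNA that also stands on the list of names matching pieces of other RNAs, had 359, 387 and 437 counts without xanthatin, against 165, 172 and 293 with it. It fell, with means of 4953 ± 832 CPM in control libraries and 1041 ± 509 CPM after xanthatin (log2 fold change -2.25, SE 0.37, edgeR adjusted p = 0.00535), and as with miR-149-3p its highest xanthatin value was in replicate 3. miR-193b-5p, from a hairpin whose 3p arm is the usual guide, fell to a mean of 430 ± 206 CPM, against 4994 ± 743 CPM in control libraries (log2 fold change -3.53, SE 0.41, edgeR adjusted p = 0.00194), with 42 counts in xanthatin 3, its lowest value. In these libraries the 5p arm of miR-193b was the more abundant, with 1208 summed counts against 6 of the 3p arm in control and 277 against 53 after xanthatin. The miR-193b arm ratio named above thus rests on 6 control counts of its 3p arm. miR-92b-5p, the strand opposite miR-92b-3p, fell to a mean of 1830 ± 331 CPM, against 3641 ± 756 CPM in control libraries (log2 fold change -0.99, SE 0.24, edgeR adjusted p = 0.0247). The call of miR-92b-5p was lost in 9 of 14 other settings (adjusted p up to 0.241), among them without control replicate 1 or 2 and without xanthatin replicate 1 or 3, and the calls of the other two held in all 14.

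The other named G-rich miRNAs were uneven between replicates. miR-663a had 0, 65 and 0 counts without xanthatin, against 78, 31 and 77 with it (log2 fold change 0.17, SE 1.79). Without control replicate 2 its fitted value was 8.62 and passed, against control libraries at 0. miR-6834-5p had 62, 43 and 0 against 0, 24 and 53 counts (-1.68, SE 1.85), and miR-760 had 47, 0 and 35 against 74, 49 and 0 counts (-0.86, SE 1.79). With all 6 libraries, none of these 3 passed.

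Summed over the 49 G-rich names apart from the members, the share of all miRNA counts was 2.0%, 1.87% and 1.79% without xanthatin, against 0.436%, 0.370% and 0.513% with it. The groups did not overlap, and the highest xanthatin share was again in replicate 3. miR-1275, miR-92b-5p and miR-193b-5p supplied 80.6% of the control counts and 67.3% of the xanthatin counts of this sum. The summed shares of the blood cell, stromal and hepatocyte names and of the names matching other RNAs, given above, were also lower after xanthatin, although single hepatocyte and blood cell names went the other way, and their part in this share was not tested.

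**Figure D4:**
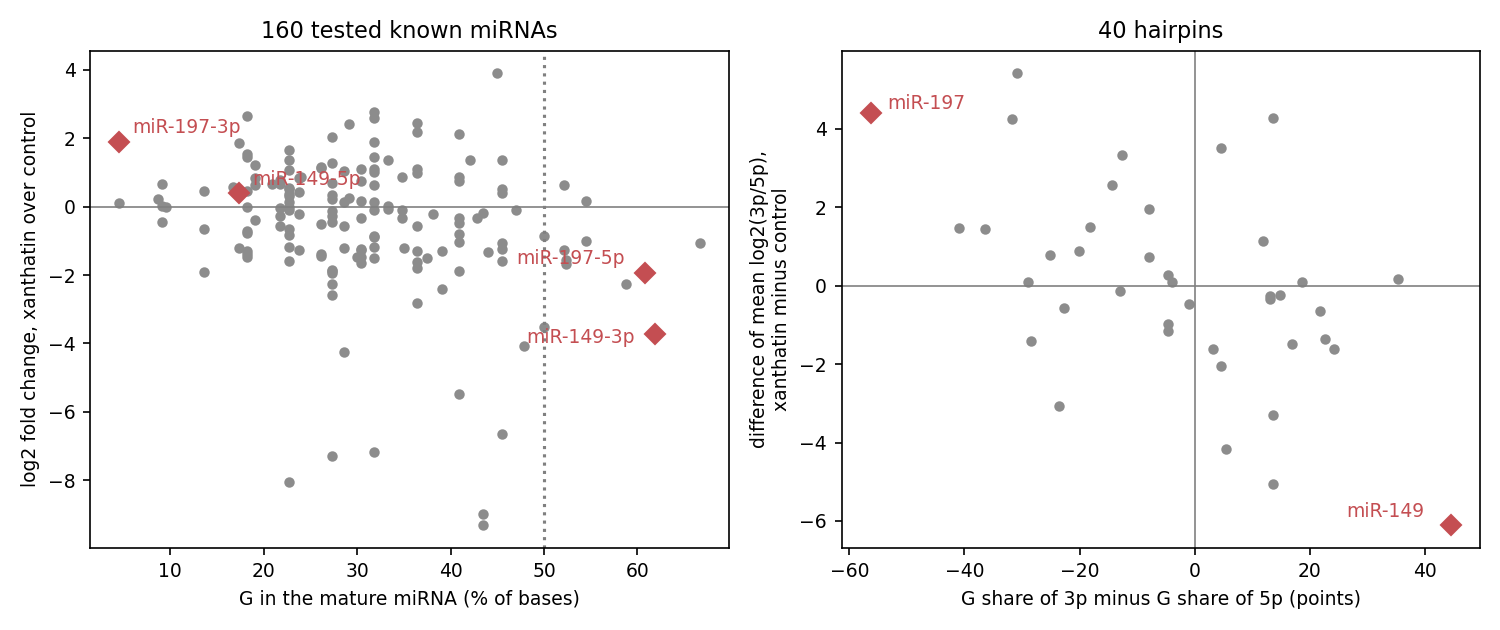
Left, the log2 fold change of 160 tested known miRNAs (y axis) is plotted against the G share of the mature sequence (x axis, percent; dotted line at 50%), and right, the difference of the mean log2 3p to 5p ratio of 40 hairpins (y axis) against the G share of the 3p arm minus that of the 5p arm (x axis, percentage points). Red diamonds mark the chosen arms and hairpins, where miR-149-3p and miR-197-5p lie at over 60% G with values of -3.73 and -1.93, and miR-149 and miR-197 lie at opposite ends of the right panel.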

How the data were processed

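Per the file headers, the authors deposited a whole-number count and a TPM value per mature miRNA name for each of 6 libraries. The deposited counts were not normalised, and the deposited TPM was not used for any result. The submitters' processing notes name hg38. Which aligner, miRNA database and counter were used is not stated in the labels or headers read here. A gel selected 18 to 30 nt RNA, per the labels' protocols. Groups and replicate numbers come from the sample titles.

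Counts were tested with edgeR 4.0.16 (R 4.3.3) using its quasi-likelihood test between the groups, with the default count filter (minimum count 10), TMM factors from the rows that passed, and Benjamini-Hochberg adjustment over 254 names at 0.05. Each SE was derived from the fold change and the F statistic. Hairpins are pairs of known names equal but for -5p and -3p, with at least 10 counts of the weaker arm. Their arm difference was tested with diffSpliceDGE of edgeR, and as an alternative with limma 3.58.1. On simulated data diffSpliceDGE passed more unchanged hairpins at an unadjusted p of 0.05 than that threshold allows. Alternatives were other scalings and filters, DESeq2 1.42.0, a replicate block, thinned libraries and leaving out each library. Floors are 3 counts and, like the exact binomial 95% intervals, describe counting error alone, because the labels name no molecular identifiers. Of 494 known names 441 matched a RefSeq mature sequence (GRCh38.p14), and unmatched names are left out of base composition.

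The members and lists were chosen with earlier results of these data known. Named miRNAs were the 4 arms, the 2 most similar to each by Pearson r of log2 CPM, called hairpins (there were 0), the 6 most abundant tested G-rich miRNAs (members apart), sharers of a member's seed, and the most abundant marker of each list. Hairpins named beyond this were chosen after their values were seen.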

Additional observations from a re-analysis of the deposited data

How the results depend on the processing

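The 3p to 5p ratio differences kept their sign in the 11 alternatives that could move them (a replicate block cannot in this balanced design), from -7.54 to -4.13 for miR-149 and from 2.82 to 5.39 for miR-197. With an added count of 0.1 or 1 in place of 0.5 they were -7.08 and -5.59 for miR-149 and 5.06 and 4.16 for miR-197. The log2 fold changes of the arms over 14 alternatives ran from -0.14 to 1.34 for miR-149-5p, from -7.03 to -3.11 for miR-149-3p, from 1.52 to 2.67 for miR-197-3p and from -3.09 to -0.97 for miR-197-5p, with the ends of each range set by leaving out 1 library. The median of the G-rich miRNAs apart from the members ran from -1.92 to -0.71 when a library was left out, and stayed below 0 in all 17 alternatives. The count of called miRNAs was 54 (replicate block) to 114 (DESeq2), and 56 to 69 with a library left out, and that of hairpins 0, but 3 with at least 30 counts of the weaker arm, 2 with RLE factors, 2 with the replicate block and 0 to 4 with a library left out (1 without control replicate 1, 4 without xanthatin replicate 1). The cause was not tested. With library totals only the median log2 fold change of all tested miRNAs shifted by -0.33, and with RLE factors by 0.11. With no count filter the median lay 0.76 higher, but over 1007 names in place of 254, so it is not a shift of the same set.

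Replicate numbers did not pair the libraries: deviations from the group means of same-numbered libraries had r of 0.123, -0.0116 and -0.0484 over 254 miRNAs. With the number as a replicate block, 54 miRNAs were called. Each hairpin had 15 to 319 counts in a library. At 15 counts, the exact interval of the miR-197 3p share in control 1 overlapped that of every xanthatin library.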
